A study of Homo sapiens with 6 samples.

Results

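The 34 genes described here encode the heat shock transcription factors HSF1 and HSF2, the cytosolic chaperones of the HSP70, HSP110, HSP90, J-domain and small heat shock protein families with several co-chaperones, the TRiC/CCT chaperonin, and 3 mitochondrial chaperones. Members were chosen as a family, with earlier results of these data known, and matched by gene symbol. All 34 were found among the 58735 genes of the deposited count table. Of these, 33 passed the filter on low counts that left 14844 genes for testing. RNA-seq was done on 6 libraries of Mum-2b, which the labels give as a uveal melanoma cell line. In 3 of them a short hairpin RNA targeted NELFCD, and the other 3 were controls of wild-type genotype. NELFCD belongs to the negative elongation factor complex, NELF, and the design asks how transcript levels stand once it is reduced. Since the titles name 1 hairpin, loss of NELFCD and off-target action of this hairpin cannot be told apart. The labels do not name the control construct, and they do not say whether the replicates were separate cultures, so the p-values measure only the spread between these libraries, which may be technical.

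Chaperones bind unfolded proteins and help them reach or keep their native shape. HSP70 works in cycles of ATP hydrolysis that J-domain proteins start and that nucleotide exchange factors such as HSP110 and BAG3 reset, and it hands clients such as kinases and steroid receptors on to HSP90. TRiC folds actin and tubulin inside a closed chamber. When proteins misfold, HSF1 forms trimers, binds heat shock elements in the promoters of inducible chaperone genes and raises their transcription. In Drosophila, Hsp70 is the classic gene at which RNA polymerase II pauses soon after the start, and NELF holds the polymerase there until heat shock releases it.

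The heat shock element is built from alternating GAA and TTC units, each separated by any 2 bases. Of the 34 members, 30 had an entry in the RefSeq promoter table (GRCh38.p14), and HSF1, CRYAB, FKBP4 and CCT6A had none. In the 250 bases upstream of a start, 6 of the 30 (20%) held 3 units in a row, searched as GAANNTTCNNGAA or, on the other strand, TTCNNGAANNTTC. Over all genes with an entry, the number was 152 of 27305 (0.557%). A pair of units, GAANNTTC or TTCNNGAA, was found in 16 of the 30 members (53.3%) and in 14.0% of all genes. Each pair reads the same on both strands, and every run of 3 units contains 2 overlapping pairs. A match describes the letters only and does not show that HSF1 binds there. The search allowed no mismatch in the units, so a member without a match may still hold an imperfect element. The stretches of the 6 members with 3 units are shown because these letters match the element that HSF1 is known to bind. Capitals mark the 3-unit matches, and each sequence runs 5′ to 3′ on the strand of its gene. HSP90AA1, HSPA8, CHORDC1 and HSPD1 are limited to 30 bases because these bases also lie within an annotated exon.
HSP90AA1 at chr14:102087111-102087140, minus strand: gagggttcTTCCGGAAGGTTCgggaggctt
HSP90AB1 at chr6:44247753-44247865, plus strand: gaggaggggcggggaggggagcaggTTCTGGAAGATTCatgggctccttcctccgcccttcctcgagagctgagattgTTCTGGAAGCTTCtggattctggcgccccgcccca
HSPA8 at chr11:123062170-123062199, minus strand: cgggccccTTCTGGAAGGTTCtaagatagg
CHORDC1 at chr11:90223083-90223112, minus strand: ccgGAAAATTCGCGAAGGTTCCTGAAacgc
HSPD1 at chr2:197500061-197500090, minus strand: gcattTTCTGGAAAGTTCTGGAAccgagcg
DNAJB6 at chr7:157336848-157336910, plus strand: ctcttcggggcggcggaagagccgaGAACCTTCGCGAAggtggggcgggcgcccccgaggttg

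CHORDC1 carried the longest run, in which 3 matches overlap and begin 60 to 50 bases upstream of its start. HSP90AB1 had 2 separate matches, 165 and 112 bases upstream. Several members, HSPA4L and DNAJB1 among them, matched only the pair of units. Of these, the stretches of HSPA1A, HSPA1B and HSPB8 are shown because all 3 matched with the same letters, in capitals. HSPB8 is limited to 30 bases because these bases also lie within an annotated exon.
HSPA1A at chr6:31815412-31815463, plus strand: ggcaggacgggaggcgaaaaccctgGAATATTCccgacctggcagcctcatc
HSPA1B at chr6:31827608-31827665, plus strand: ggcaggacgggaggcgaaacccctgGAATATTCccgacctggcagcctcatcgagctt
HSPB8 at chr12:119178832-119178861, plus strand: tcatcacctccGAATATTCctgtgacagga

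Total counts ran from 14306733 to 16656630 per library. NELFCD was at 20.7, 37.4 and 40.3 CPM (counts per 1000000) in knockdown replicates 1 to 3 and at 65.5, 88.3 and 83.5 CPM in control replicates 1 to 3, so the targeted transcript was lower in every knockdown library. The main axis of variation (68.8%) set replicate 1 of either group against the remaining libraries, and the next axis (17.1%) split knockdown from control. Results are given without and with the replicate number as a block in the model, and the pairs are described one by one. Mitochondrially encoded genes took 4.42% to 4.70% of counts in the knockdown and 4.02% to 4.95% in the controls. Of 7 melanocyte lineage markers, SOX10, PMEL, TYR and DCT stayed under 1 CPM in every library. MITF, TYRP1 and MLANA passed the filter on low counts, MITF and TYRP1 above 1 CPM in every library, and the 7 summed to 7.61 to 18.3 CPM in the knockdown and 7.50 to 10.7 CPM in the controls. Fibroblast markers summed to 0.727 to 1.58 CPM in the knockdown and 1.23 to 2.26 CPM in the controls, blood cell markers to 0.199 to 0.822 and 0.274 to 0.991 CPM. Endothelial markers summed to 54.4 to 58.0 CPM in the knockdown and 126 to 166 CPM in the controls, nearly all of it CDH5. Epithelial markers summed to 1058 to 1462 CPM and 686 to 1302 CPM, nearly all of it KRT8 and KRT18. The part of these levels in the results was not tested.

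In the knockdown most chaperone transcripts lay close to control. With the replicate block, HSF1, the master regulator of the heat shock response, fell, and HSPA4L, an HSP110-type exchange factor, rose; without it neither passed. The small heat shock protein gene HSPB8 had the largest fold change of the 33 without passing the test. No other member passed in these models. Without the replicate block edgeR's quasi-likelihood test (Benjamini-Hochberg adjustment over all genes, threshold 0.05) called 0 members, against 0 called genes over the whole table, and 1 member, HSPB8, had an unadjusted p under 0.05, where 6.43% of all genes did. DESeq2 and limma-voom without the block likewise called 0 members. With the replicate block 1 of 33 members rose, where 5.48% of all genes did, and 1 fell, where 8.01% did. That background had 40.6% of its calls upward, and 54.9% with upper-quartile scaling, under which AHSA1 and TCP1 also passed as rises. The unadjusted p was under 0.05 for 11 members, against 30.5% of all genes. The median log2 fold change of the members was 0.07 with the block, and 0.00 over all tested genes. In 30 of 33 members the blocked log2 fold change was smaller than 0.25 in either direction (90.9%), as in 62.5% of all genes, and in 31 its 95% interval lay within 0.5 of 0 (93.9%), as in 52.6% of all genes. Without the block the interval lay within 0.5 of 0 for 3 members, HSF2, DNAJA2 and HSPA9 (9.09%), as for 16.1% of all genes. The shares are not matched for expression level. Across the 3 pairs 14 members were higher in the knockdown each time, where 25.9% of all genes were, and 6 were lower each time, where 26.9% were.

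**Figure D1:**
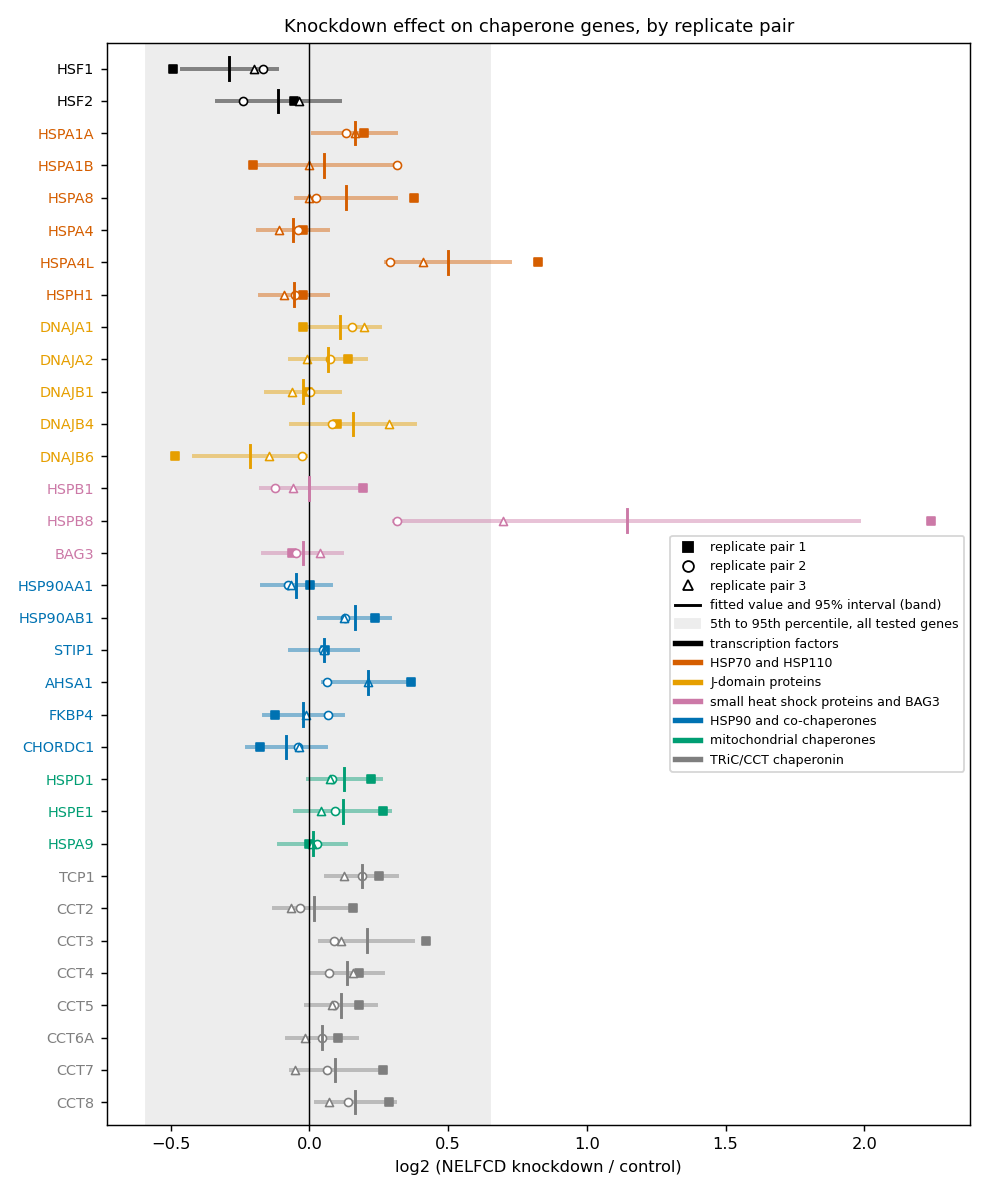
Log2 ratio of NELFCD knockdown over control (x axis) for the 33 tested members (y axis), with replicate pair 1 as filled squares, pair 2 as open circles and pair 3 as open triangles; the upright bar is the value fitted with the replicate block and the band its 95% interval. HSF1 lies below 0 at -0.29, HSPA4L at 0.50 and HSPB8 at 1.14, while 30 members lie within 0.25 of 0; the grey field is the 5th to 95th percentile of all tested genes (-0.59 to 0.65).

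HSF1 (ENSG00000185122, chromosome 8, 144291591 to 144314722, hg38) was at 206, 194 and 196 CPM in knockdown replicates 1 to 3 and at 291, 219 and 225 CPM in control replicates 1 to 3. All 3 knockdown libraries lay below all 3 control libraries, as for 7.38% of all genes, and the highest control value was that of replicate 1. The knockdown mean was 199 ± 6.5 CPM and the control mean 245 ± 39.8 CPM (SD, n = 3 each). The blocked log2 fold change was -0.29 ± 0.075 (SE), with an edgeR adjusted p of 0.037. Without the block it was -0.30 with an edgeR adjusted p of 0.885. The pairs gave log2 differences of -0.49, -0.17 and -0.20. The blocked call was lost without pair 2 (edgeR adjusted p = 0.0903), and adjusted p ran from 4.65e-06 to 0.0903 over the 9 blocked alternatives in edgeR, DESeq2 and limma-voom. Without pair 1 the value was -0.19. HSF2, which can pair with HSF1 in mixed trimers, was at 18.3, 19.99 and 21.0 CPM in the knockdown and at 19.1, 23.6 and 21.6 CPM in the controls. Its groups overlapped, and its blocked log2 fold change of -0.11 had a 95% interval of -0.33 to 0.11 (edgeR adjusted p = 0.484).

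Among the HSP70 and HSP110 genes 1 of 6 rose and 0 fell with the block, where 5.48% of all genes rose and 8.01% fell. HSPA4L (ENSG00000164070, chromosome 4, 127781821 to 127840733) was at 70.8, 94.1 and 102 CPM in knockdown replicates 1 to 3 and at 40.0, 76.9 and 77.0 CPM in control replicates 1 to 3. It was higher in the knockdown in each pair, though knockdown replicate 1 lay below control replicates 2 and 3. The blocked log2 fold change was 0.50 ± 0.099 (SE), with an edgeR adjusted p of 0.0142, and without the block it was 0.46 with an edgeR adjusted p of 0.984. The call held in all 9 blocked alternatives, with edgeR, DESeq2 or limma-voom adjusted p from 1.15e-09 to 0.0234. Its pair differences were 0.82, 0.29 and 0.41, and without pair 1 the blocked value was 0.35. Its exons share 6.2% of their bases with other annotated genes, and whether counting used strand is not given in the sources used here.

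HSPA4, the close paralog of HSPA4L, did not pass. It was at 217, 364 and 348 CPM in the knockdown and at 220, 375 and 376 CPM in the controls, with a blocked log2 fold change of -0.06 (95% interval -0.19 to 0.07, edgeR adjusted p = 0.528). FPKM is fragments per 1000 bases of a gene's annotated exons and 1000000 reads. A ratio between genes therefore depends on annotated exon lengths, which may differ from those of the expressed transcripts. The FPKM ratio of HSPA4 to HSPA4L was 6.89, 8.73 and 7.67 in the knockdown and 12.4, 11 and 11 in the controls. All 3 knockdown ratios lay below all 3 control ratios (7.76 ± 0.924 and 11.5 ± 0.808, SD, n = 3 each, exact two-sided permutation p = 0.1, the smallest that 3 against 3 libraries allow). HSPH1, the inducible HSP110, was at 220, 625 and 610 CPM in the knockdown and at 224, 648 and 649 CPM in the controls, a blocked log2 fold change of -0.05 (95% interval -0.18 to 0.07). Without pair 1, HSPH1 and HSPA4 passed as falls (-0.07 and -0.08, edgeR adjusted p of 0.0201 and 0.0374). All calls without pair 1 rest on 2 pairs and their small spread, and in that setting 12.7% of all genes rose and 14.9% fell.

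HSPA8, the constitutive HSP70, had the highest FPKM of the HSP70 genes and stood at 1470, 2464 and 2418 CPM in the knockdown and 1132, 2426 and 2421 CPM in the controls. Pair 1 differed by 0.38 on the log2 scale and pairs 2 and 3 by 0.02 and 0.00. Over all pairs the blocked value of 0.13 did not pass (95% interval -0.05 to 0.31, edgeR adjusted p = 0.297), and without pair 1 it was 0.01. The stress-inducible HSPA1A was at 31.8, 81.5 and 87.1 CPM in the knockdown and at 27.7, 74.4 and 77.7 CPM in the controls. HSPA1B was at 15.4, 38.6 and 38.4 CPM and at 17.7, 31.0 and 38.5 CPM. Their blocked log2 fold changes were 0.16 (95% interval 0.01 to 0.31) and 0.05 (-0.19 to 0.30), with edgeR adjusted p of 0.135 and 0.782. Without pair 1 HSPA1A passed as a rise (0.15, edgeR adjusted p = 0.0314), where 12.7% of all genes rose. The division of reads between HSPA1A and HSPA1B is uncertain, since 71.3% of the 50-base stretches of HSPA1A transcripts occur in HSPA1B. HSPA8 exceeded HSPA1A and HSPA1B together 16.1-, 10.6- and 9.91-fold in FPKM in the knockdown and 12.8-, 11.8- and 10.7-fold in the controls.

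**Figure D2:**
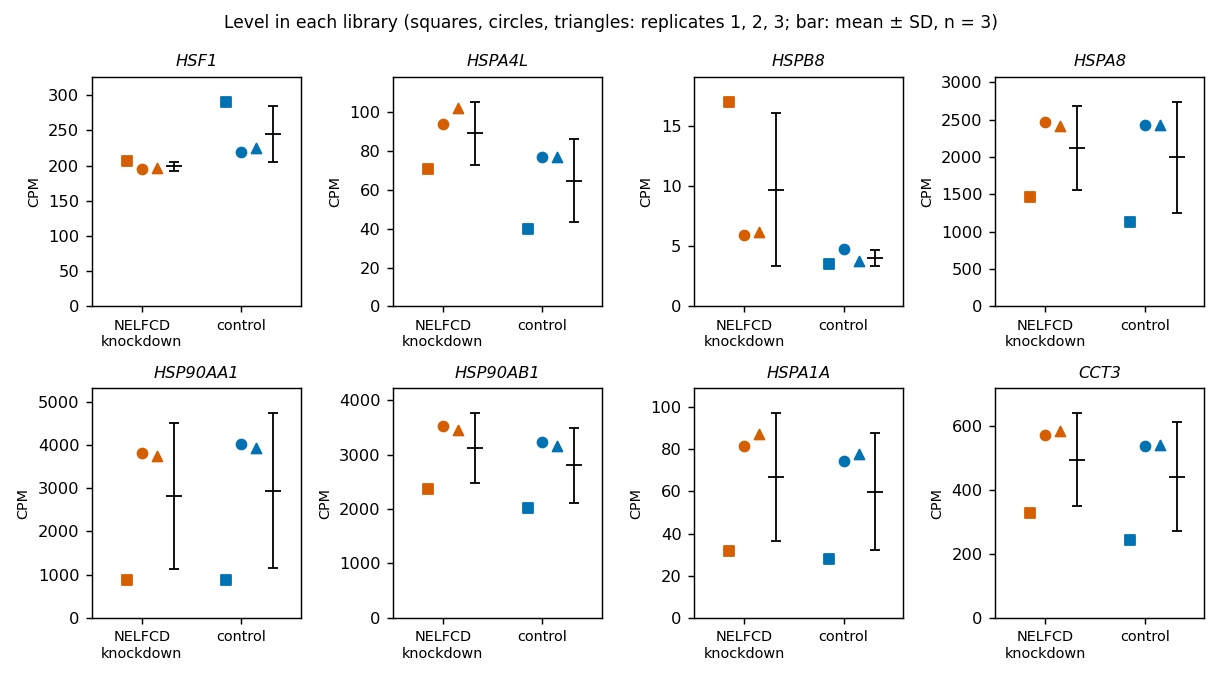
CPM (y axis, from 0) of 8 members in each library of the NELFCD knockdown (left) and control (right) groups, with squares, circles and triangles for replicates 1, 2 and 3 and black bars for mean ± SD (n = 3). HSF1 is lower and HSPB8 higher in all 3 knockdown libraries, and the replicate 1 squares of HSPA8, HSP90AA1, HSP90AB1, HSPA1A and CCT3 lie below the other symbols in both groups.

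Of the 5 J-domain genes, whose proteins stimulate the ATPase of HSP70, 0 passed with the block in edgeR, DESeq2 or limma-voom. The unadjusted edgeR p was under 0.05 for 1, DNAJB6, where it was for 30.5% of all genes. DNAJA1, which had the highest FPKM of them, was at 159, 443 and 448 CPM in the knockdown and 162, 398 and 391 CPM in the controls, and its blocked log2 fold change was 0.11 (95% interval -0.03 to 0.26). Its pair 1 difference of -0.02 lay below the 0.15 and 0.20 of pairs 2 and 3. Without pair 1 DNAJA1 passed as a rise (0.17, edgeR adjusted p = 2.33e-08), where 12.7% of all genes rose. DNAJB1, the inducible partner of HSP70 in heat shock, was at 101, 164 and 164 CPM in the knockdown and 102, 163 and 172 CPM in the controls, a blocked log2 fold change of -0.02. DNAJB6, which suppresses the aggregation of polyglutamine proteins, was at 67.3, 119 and 103 CPM in the knockdown and 94.1, 121 and 114 CPM in the controls. Each pair of DNAJB6 was lower, by -0.48, -0.03 and -0.15, but the blocked value of -0.21 did not pass (edgeR adjusted p = 0.141), except with no filter on low counts (-0.23, edgeR adjusted p = 0.0331). DNAJA2 and DNAJB4 had blocked values of 0.07 and 0.16, with overlapping groups.

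HSPB8 (ENSG00000152137, chromosome 12, 119178642 to 119221131), a small heat shock protein that acts with BAG3 in chaperone-assisted autophagy, was the member with the largest difference. It was at 17.0, 5.94 and 6.17 CPM in knockdown replicates 1 to 3 and at 3.5, 4.74 and 3.75 CPM in control replicates 1 to 3. All 3 knockdown libraries lay above all 3 control libraries, as for 7.52% of all genes. The blocked log2 fold change was 1.14 ± 0.356 (SE), with an edgeR adjusted p of 0.0791, and 1.28 without the block (edgeR adjusted p = 0.706). Pair 1 differed by 2.24 on the log2 scale against 0.32 and 0.70 in pairs 2 and 3. Without pair 1 the blocked value was 0.51 (edgeR adjusted p = 0.0594). Counts were low, with 256, 98 and 90 reads in the knockdown and 51, 67 and 60 in the controls. The 95% Poisson interval of replicate 1, which covers counting error only, was 15 to 19.2 CPM in the knockdown and 2.60 to 4.60 CPM in the control, while in replicate 2 the intervals overlapped (4.82 to 7.24 and 3.68 to 6.02 CPM). In replicate 3 they did not overlap (4.96 to 7.58 CPM in the knockdown and 2.86 to 4.83 CPM in the control). HSPB8 passed in 5 of 9 blocked alternatives, with DESeq2 and limma-voom among them, and its adjusted p ran from 4.51e-07 to 0.0805.

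Neither BAG3 nor HSPB1 passed. BAG3 was at 56.1, 110 and 111 CPM in the knockdown and 58.7, 113 and 108 CPM in the controls, a blocked log2 fold change of -0.02 (95% interval -0.17 to 0.12). HSPB1, known as HSP27, was at 110, 164 and 173 CPM in the knockdown and 95.8, 179 and 180 CPM in the controls, a blocked value of 0.00 (95% interval -0.17 to 0.17), although pair 1 was at 0.19 and pairs 2 and 3 at -0.12 and -0.06. CRYAB, the alpha-B crystallin gene, had 0 counts in each of the 6 libraries, which allows at most 0.182 to 0.212 CPM per library at a floor of 3 counts, so it was not tested.

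The HSP90 genes and their co-chaperones gave 0 calls among 6 with the block, in edgeR, DESeq2 and limma-voom. In edgeR 2 had an unadjusted p under 0.05, HSP90AB1 and AHSA1, where 30.5% of all genes did. HSP90AB1, the constitutive form, was at 2375, 3535 and 3447 CPM in the knockdown and 2015, 3235 and 3162 CPM in the controls, higher in each pair by 0.24, 0.13 and 0.12 (blocked 0.16, 95% interval 0.04 to 0.29, edgeR adjusted p = 0.0877). HSP90AA1, the inducible form, was at 875, 3823 and 3747 CPM in the knockdown and 874, 4029 and 3926 CPM in the controls, a blocked value of -0.05 (95% interval -0.17 to 0.08). In CPM HSP90AA1 lay above HSP90AB1 in replicates 2 and 3 of both groups. FPKM also divides by annotated exon length, 5248 bases for HSP90AA1 and 2980 for HSP90AB1. Their FPKM ratio, HSP90AA1 over HSP90AB1, was 0.209, 0.614 and 0.617 in the knockdown and 0.246, 0.707 and 0.705 in the controls. It was lower in the knockdown within each pair, while the replicates differed more than the groups, and an unpaired exact two-sided permutation test gave p = 0.5. AHSA1, which stimulates the HSP90 ATPase, was at 113, 180 and 189 CPM in the knockdown and 88.0, 172 and 164 CPM in the controls (blocked 0.21, edgeR adjusted p = 0.0837). STIP1, which bridges HSP70 and HSP90, had pair differences of 0.06, 0.05 and 0.05. FKBP4 and CHORDC1 had blocked values of -0.02 and -0.08. HSP90AB1 and AHSA1 passed as rises with replicate 1 as a batch term (edgeR adjusted p of 0.0234 and 0.0301), where 9.29% of all genes rose. Without pair 1 both passed again, and HSP90AA1 passed as a fall (-0.07, edgeR adjusted p = 0.0001). In that setting 12.7% of all genes rose and 14.9% fell.

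**Figure D3:**
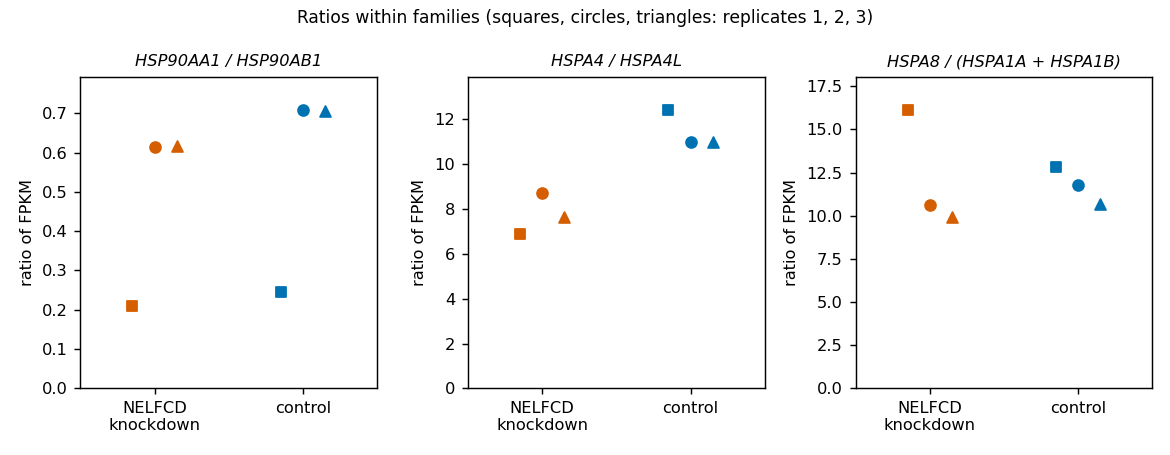
Ratio of the deposited FPKM (y axis, from 0) within 3 families in each library of the NELFCD knockdown (left) and control (right) groups, with squares, circles and triangles for replicates 1, 2 and 3. The HSPA4 to HSPA4L ratio is 6.89 to 8.73 in the knockdown and 11 to 12.4 in the controls, and the HSP90AA1 to HSP90AB1 ratio is lowest in replicate 1 of both groups (0.209 and 0.246).

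Of the 3 mitochondrial chaperone genes 0 passed with the block, in edgeR, DESeq2 and limma-voom. In edgeR 0 had an unadjusted p under 0.05, where 30.5% of all genes did. HSPA9, the mitochondrial HSP70, was at 650, 792 and 774 CPM in the knockdown and 652, 777 and 768 CPM in the controls, with a blocked log2 fold change of 0.01 (95% interval -0.11 to 0.13). HSPD1 and HSPE1, the HSP60 and HSP10 of the mitochondrial folding chamber, are transcribed head to head. HSPD1 was at 582, 944 and 910 CPM in the knockdown and 499, 894 and 864 CPM in the controls. HSPE1 was at 20.8, 72.9 and 70.6 CPM in the knockdown and 17.3, 68.3 and 68.6 CPM in the controls. Their blocked values were alike, 0.12 for both, and did not pass (edgeR adjusted p of 0.183 and 0.323). Without pair 1 HSPD1 passed as a rise (0.08, edgeR adjusted p = 0.0052), where 12.7% of all genes rose. The level of HSPE1 is uncertain because 23.9% of its exon bases belong to other genes as well.

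All 8 TRiC subunit genes had a blocked log2 fold change above 0, where 7426 of 14844 tested genes did. The values ran from 0.02 for CCT2 to 0.21 for CCT3, and none passed with the replicate block. The tools gave 0 calls in edgeR, DESeq2 and limma-voom. In edgeR 4 had an unadjusted p under 0.05 (TCP1, CCT3, CCT4 and CCT8), where 30.5% of all genes did. The direction held for all 8 under each blocked scaling, filter and tool tried, and for 7 without pair 1. Without the block and without control replicate 1 it held for 0. TCP1, CCT3, CCT4, CCT5 and CCT8 passed as rises without pair 1 (0.08 to 0.16), where 12.7% of all genes rose. TCP1 and CCT3 passed with replicate 1 as a batch term (edgeR adjusted p of 0.0147 and 0.035), where 9.29% of all genes rose. Over the 9 blocked alternatives TCP1 passed in 3 and CCT3 in 2. TCP1 was at 309, 657 and 643 CPM in the knockdown and 260, 576 and 589 CPM in the controls, higher in each pair by 0.25, 0.19 and 0.13 (blocked 0.19, edgeR adjusted p = 0.0587). CCT3 was at 327, 571 and 585 CPM in the knockdown and 244, 537 and 540 CPM in the controls, with pair differences of 0.42, 0.09 and 0.12. CCT6A, the subunit with the highest mean FPKM, was at 324, 726 and 682 CPM in the knockdown and 302, 703 and 690 CPM in the controls (blocked 0.04). The list medians were 0.21, 0.08 and 0.07 in pairs 1, 2 and 3. The subunits enter the complex in equal number. Their FPKM differed by 1.81 to 2.02 times between the highest and the lowest subunit in the knockdown and by 1.93 to 1.99 times in the controls. That spread depends on annotated exon length, which is 2830 bases for CCT4 and 5839 for CCT5. In every library CCT5 lay below CCT4 in FPKM but above it in CPM. Whether the subunit transcripts are equal in number was not tested. Part of the CCT5 count is uncertain, as 30.1% of its exon bases lie in another annotated gene.

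Pair 1 holds 1 library per group, so an interaction of the knockdown with replicate 1 takes its error from the small spread between replicates 2 and 3 and cannot separate an effect from variation of single libraries. With that limit, edgeR's interaction term passed for 11 of 33 members and for 13.0% of all genes. In 8 of the 11 the pair 1 difference was the higher one: HSPB8, HSPA4L, HSPA8, CCT3, HSPB1, CCT7, CCT2 and CCT8. It was the lower one in HSF1, DNAJB6 and DNAJA1. Over all genes 751 were higher and 1181 lower in pair 1. The median of the members was 0.14 in pair 1, 0.06 in pair 2 and 0.01 in pair 3, while the medians of all genes were -0.02, 0.01 and 0.00. Knockdown replicate 1 had 6.46% of its counts in ribosomal protein genes, against 5.09% and 5.11% in knockdown replicates 2 and 3 and 4.87% to 5.38% in the controls, and the part of that in these differences was not tested.

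Most members differed between replicate 1 and the others in both groups. With group in the model, edgeR called 29 of 33 members lower in replicate 1 than in replicates 2 and 3, where 30.2% of all genes were. It called 1, HSF1, higher, where 31.6% were. HSF1 was at 291 CPM in control replicate 1 against 219 and 225 CPM in control replicates 2 and 3. In the knockdown it differed less, at 206 against 194 and 196 CPM. HSF2, DNAJB4 and HSPB8 did not pass. The 33 members together took 1.07%, 1.95% and 1.92% of counts in knockdown replicates 1 to 3 and 0.915%, 1.89% and 1.88% in control replicates 1 to 3. The median log2 difference, replicate 1 over replicates 2 and 3, was -0.76 for the members and 0.03 for all genes. It was largest for HSP90AA1 at -2.15, followed by HSPE1 (-1.88), HSPH1 (-1.51), HSPA1A (-1.43) and DNAJA1 (-1.38). HSPA9 (-0.26), DNAJA2 (-0.21) and CCT8 (-0.45) differed least among those that passed lower. By role the medians were -1.03 for HSP70 and HSP110, -0.95 for HSP90 and its co-chaperones, -0.96 for TRiC, -0.74 for the mitochondrial chaperones and -0.52 for the J-domain genes. The 6 members with 3 heat shock units upstream ran from -2.15 (HSP90AA1) to -0.52 (DNAJB6). The other members with a promoter entry ran from -1.88 (HSPE1) to 0.83 (HSPB8), though the HSPD1 match lies within the annotated span of HSPE1. HSF1, FKBP4 and CCT6A had no entry and were not searched. The 6 members with 3 units had blocked knockdown values of -0.21 to 0.16. These p-values rest on the small spread between replicates 2 and 3, and what set replicate 1 apart is not given in the labels.

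**Figure D4:**
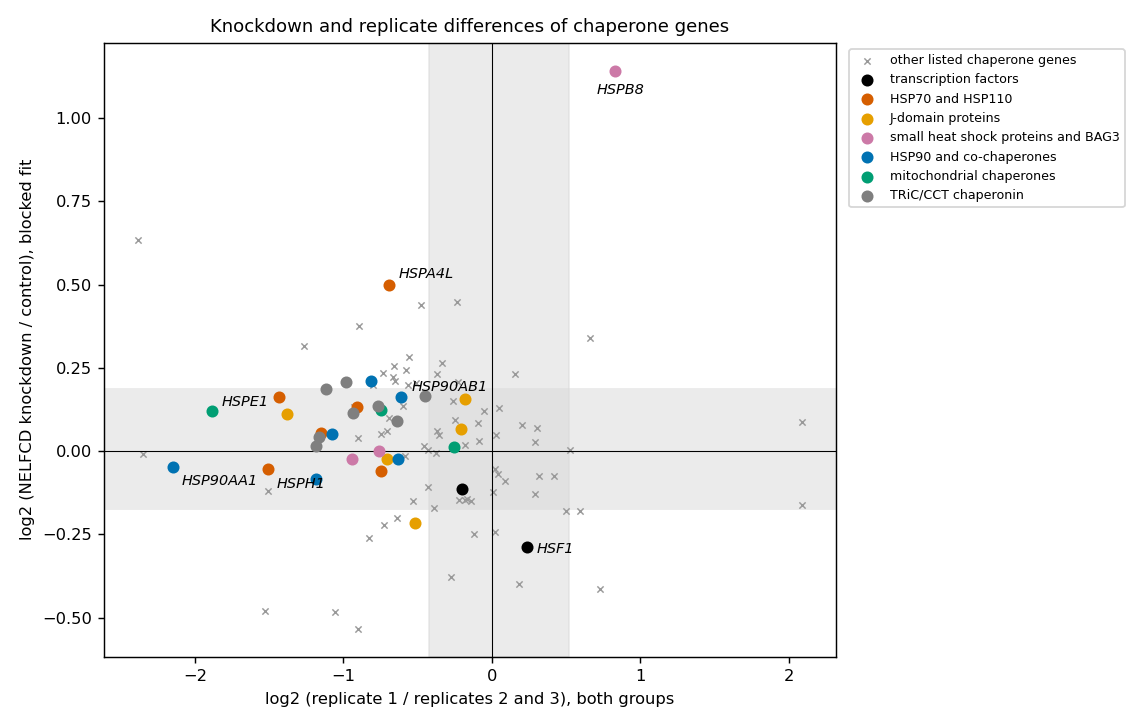
Log2 ratio of replicate 1 over replicates 2 and 3 in both groups (x axis) against the blocked log2 ratio of NELFCD knockdown over control (y axis), with members as coloured dots and the other listed chaperone genes as grey crosses; grey bands are the 25th to 75th percentiles of all tested genes. Most members spread along the x axis, down to -2.15 for HSP90AA1, and stay near 0 on the y axis, apart from HSPB8, HSPA4L and HSF1.

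Other chaperone genes, listed by family, gave 11 calls with the block. Of 81 such genes 74 were tested, and with the block 6 rose, where 5.48% of all genes did, and 5 fell, where 8.01% did. Without the block edgeR called 0, and 1 had an unadjusted p under 0.05, where 6.43% of all genes did. Among other HSP70 genes and cofactors (14 tested) BAG1, a nucleotide exchange factor, rose at 30.8, 58.1 and 58.9 CPM in the knockdown and 24.5, 41.0 and 48.2 CPM in the controls (0.37, edgeR adjusted p = 0.0176). BAG2, an inhibitor of the ubiquitin ligase CHIP, fell at 16.4, 45.2 and 45.4 CPM in the knockdown and 21.6, 67.7 and 61.5 CPM in the controls (-0.48, edgeR adjusted p = 0.0073). Of 13 other J-domain genes 3 fell and 0 rose, led by DNAJC9, a histone co-chaperone (-0.48), and DNAJC13, which acts on endosomes (-0.38). Of 19 other HSP90 co-chaperone genes 3 rose and 0 fell, led by FKBP5 (0.32) and the kinase co-chaperone CDC37 (0.27). Among 13 prefoldin and chaperonin cofactor genes the prefoldin subunit VBP1 fell (-0.53) and the prefoldin-like URI1 rose (0.23). Of 8 mitochondrial chaperone and protease genes 1 rose: TRAP1, the mitochondrial HSP90, was at 134, 146 and 146 CPM in the knockdown and 88.3, 113 and 112 CPM in the controls. Its groups did not overlap, and the log2 fold change was 0.45 ± 0.069 (SE, edgeR adjusted p = 0.0057). The 1 tested gene of the other small heat shock proteins, HSPB11, and the 6 other heat shock response genes gave 0 calls. In the second list 2 had an unadjusted p under 0.05 with the block in edgeR, where 30.5% of all genes did.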

How the data were processed

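Gene counts were deposited unnormalized for 6 libraries. The authors also deposited FPKM, as named in the file headers. The submitters' processing notes give hg38, while aligner, counting program and strand setting are not given in the sources used here. Each deposited FPKM equalled the count over gene length and 1 constant per library (0.982 to 1.07 times its total). edgeR 4.0.16 (R 4.3.3, limma 3.58.1, DESeq2 1.42.0) was run on all genes passing filterByExpr, with TMM factors of 0.989 to 1.03, robust quasi-likelihood F-tests and Benjamini-Hochberg adjustment at 0.05, and checked on simulated counts. CPM use TMM-scaled library sizes of the tested genes. Pair differences are log2 CPM with a prior count of 2. The model without a block was the planned one and the replicate block its alternative. Deviations from the group mean correlated across genes at 0.838, 0.629 and 0.616 for libraries sharing a number, and the labels do not state what a number marks; libraries 2 and 3 correlated as well when crossed (0.623 and 0.627). Dispersion corresponded to a common coefficient of variation of 8.17% in the blocked model (2 residual degrees of freedom) and 32.6% in the other (4). That replicate 1 stood apart was known before it was set against replicates 2 and 3. The interaction with replicate 1 was added after the data were seen. Exon sharing and shared 50-base stretches used GENCODE release 29. Members and lists were chosen with earlier results of these data known. By rule, values per library are given for called members, members whose groups did not overlap, HSF1, HSF2 and the highest-expressed member of each role; others were added to complete each family.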

Additional observations from a re-analysis of the deposited data

How the results depend on the processing

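Without the block, edgeR's call of 0 members and 0 genes was unchanged by DESeq2 size factors, upper-quartile scaling, no filter, a mean of at least 5 CPM, limma-voom and each left-out library. DESeq2 called 161 genes and 0 members. The replicate block gave 1 rise, 1 fall and 2002 genes, replicate 1 as a batch term 5 rises, 1 fall and 3117 genes, and replicates 2 and 3 alone 9 rises, 2 falls and 3758 genes. In that order, 5.48%, 9.29% and 11.7% of all genes rose, and 8.01%, 11.7% and 13.7% fell. NELFCD, at -1.27 without the block, passed with the block (-1.30), DESeq2 (-1.28), the batch term (-1.30) and replicates 2 and 3 alone (-1.15). The unblocked member median of 0.069 ran from -0.175 (without control replicate 1) to 0.289 (without knockdown replicate 1) over left-out libraries, each of which unbalances the replicate numbers, and was 0.034 with replicates 2 and 3 alone. With the block, risen members were 3 with upper-quartile scaling, 3 with no filter (2 falls), and 2 each at 5 CPM, with DESeq2 and with limma-voom. In that order, 8.07%, 3.48%, 7.15%, 3% and 5.79% of all genes rose in these settings, and 5.51% fell with no filter. Left-out pairs gave 2 to 11 rises and 0 to 4 falls of 33 members, and 932 to 4090 called genes. Over all genes 12.7% rose and 14.9% fell without pair 1. The shares were 2.01% and 4.09% without pair 2, and 4.27% and 7.29% without pair 3. The 11 rises (HSPA1A, HSPA4L, DNAJA1, HSP90AB1, AHSA1, HSPD1, TCP1, CCT3, CCT4, CCT5, CCT8) and 4 falls (HSF1, HSPA4, HSPH1, HSP90AA1) came without pair 1, and 932 genes and 0 falls without pair 2. Only the blocked calls of HSPA4L and HSF1 could be lost in the alternatives, since without the block 0 members were called. In the alternatives 657 of 792 member values kept direction and side of the threshold. Of the rest, 42 newly passed, 1 no longer passed (HSF1 without pair 2), 0 turned over a call and 92 changed sign with no call. The cause was not tested. CRYAB was not detectable at this depth.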
